A study of Mus musculus with 12 samples.

Results

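The cortical translatome is the set of mRNAs whose translating ribosomes lie close enough to desmosomes to be tagged there, and its response to a scratch wound was measured in 6 of the 12 RNA-seq libraries of a study of cultured mouse keratinocytes. The 6 were chosen by their labels: 3 unwounded cortical and 3 wounded cortical libraries, fitted alone. All cells carried the genotype WT DP-BirA(1-584), a biotin ligase fused to the N-terminal part of desmoplakin, switched on with 2 µg/mL doxycycline at the time calcium was added to a confluent sheet to start differentiation. The sheets were then scratched or left intact and given biotin for 16 h. Translating material from a sucrose gradient was passed over neutravidin, a resin that holds biotinylated proteins: what was retained gave the cortical libraries and the depleted remainder gave the total libraries. The unwounded sheets carry the fusion protein, the doxycycline and the biotin too. The libraries are labelled as biological replicates, with nothing said of how replicate numbers relate to culture dishes, so p-values measure the spread between these libraries.

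Desmosomes are the junctions that rivet neighbouring keratinocytes together, and desmoplakin ties them to the keratin filaments inside the cell. Keratinocytes at a wound edge change their keratins, loosen and remake their contacts, and crawl over matrix to close the gap. Messenger RNAs can be translated at particular places in a cell, and desmosome-based tagging samples those translated near the cortex. A cortical level reflects both how much of an mRNA the cell translates and what share of it lies near the tag. In bulk lysates a change in the number of cells of one kind cannot be told apart from a change in RNA per cell.

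The cortical libraries held between 8980013 (unwounded replicate 3) and 23457548 counts (unwounded replicate 1), with 14393 to 15397 genes detected. Markers of keratinocytes were abundant: the summed level of 9 of them was 17017 to 17146 CPM (here plain counts relative to the library total) in unwounded and 22190 to 22860 in wounded libraries, with 4 called higher and 1 lower. All CPM of single genes below are further scaled between libraries by edgeR's trimmed mean method. Fibroblast, melanocyte, endothelial and muscle markers summed to at most 3.12 CPM in any library, and Dcn, Thy1, Tyr, Tyrp1, Sox10, Cdh5 and Kdr were at 0. The immune markers summed to 19.5 to 22.9 CPM unwounded and 34.5 to 41.1 CPM wounded, nearly all of it from Cd68, a lysosomal protein, while Cd3e, Cd207, Lyz2 and Itgam were at 0. The first principal component of the cortical libraries held 29.5% of the variance and parted the groups: unwounded libraries lay between -33.6 and -19.0, and wounded libraries between 11.5 and 53.0, with wounded replicate 2 standing apart at 53.0.

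Wounding changed many cortical mRNAs by small amounts. Of 12599 genes tested with edgeR's quasi-likelihood test and Benjamini-Hochberg adjustment, 1423 were called at an adjusted p under 0.05, which is 11.3% of those tested. Of these, 790 were higher in wounded libraries (6.27% of those tested) and 633 lower (5.02%). Only 87 of the calls, 0.691% of genes tested, were at least 2-fold: 37 higher and 50 lower. The median log2 fold change over all genes tested was -0.01. Leaving out unwounded replicate 1 or 2 lowered the count to 902 or 906, and leaving out wounded replicate 2, the library that stood apart, left 1194.

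**Figure D1:**
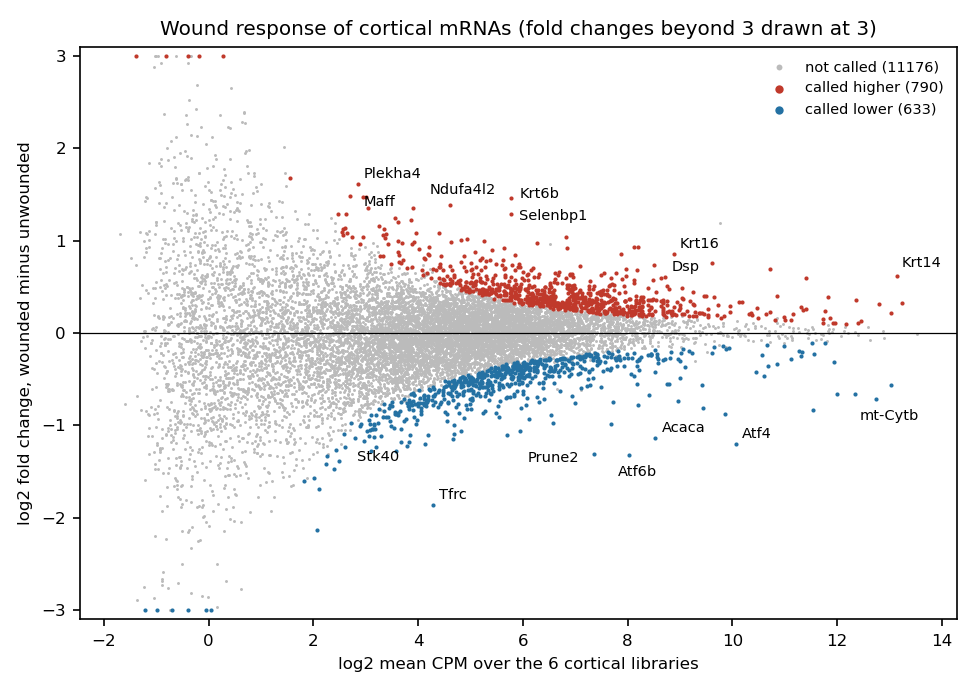
Each point is 1 of the 12599 genes tested, with its mean level over the 6 cortical libraries (x, log2 CPM) and its wounded minus unwounded log2 fold change (y); the 790 genes called higher are red, the 633 called lower blue. Most called genes changed by less than 2-fold, and Atf4, Atf6b, Acaca and Prune2 stand out as abundant mRNAs with large falls.

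Among well-measured protein-coding mRNAs, the largest rise was that of Plekha4, which encodes a pleckstrin homology domain protein. It stood at 2.84, 4.45 and 3.42 CPM in the unwounded libraries and 13.4, 10.7 and 8.27 CPM in the wounded ones, a 3.06-fold rise (log2 fold change 1.62, SE 0.32, edgeR adjusted p = 0.00149). Every wounded library was above every unwounded one, which the rule for choosing these largest changes required. Of all 1423 called genes, 1400 had groups that did not overlap. Hcar2, a receptor for niacin and ketone bodies, rose by 1.48 on the log2 scale, from 2.63 to 4.78 CPM to between 8.50 and 12.8 CPM. Ndufa4l2, a hypoxia-inducible relative of a cytochrome oxidase subunit, was tightly grouped at 14.3, 14.2 and 11.8 CPM unwounded and 34.4, 35.4 and 36.4 CPM wounded (log2 fold change 1.39, SE 0.16, adjusted p = 2.49e-06). Selenbp1, a methanethiol oxidase, went from 26.0, 34.7 and 34.5 to 70.7, 83.1 and 77.2 CPM (log2 fold change 1.29, SE 0.12, adjusted p = 9.55e-08). Both genes were separated between the groups by more than their range within either group. Maff, a small Maf transcription factor (log2 fold change 1.35), Rbp2, a retinol-binding protein (1.24), Serhl (1.23), Bckdha, a subunit of the branched-chain ketoacid dehydrogenase (1.20), and Il18, an epidermal cytokine (1.16), rose as well, and each was called in every fit leaving out 1 library. Serpina3n, a protease inhibitor, rose by 1.48, but was not called without unwounded replicate 1 (adjusted p = 0.0876) or unwounded replicate 2 (0.0678).

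Among well-measured protein-coding mRNAs, the largest fall was that of Tfrc, the transferrin receptor that brings iron into the cell. Its level was 26.8, 28.5 and 36.8 CPM unwounded and 8.85, 5.43 and 10.7 CPM wounded, a 3.65-fold fall (log2 fold change -1.87, SE 0.22, edgeR adjusted p = 2.82e-06). The total fraction gave a log2 fold change of -2.18 (adjusted p = 8.54e-05), so both fractions held less Tfrc after wounding. The iron storage genes Fth1 (log2 fold change 0.18) and Ftl1 (0.25) rose slightly at the cortex; each call was lost without some libraries, unwounded replicate 2 or wounded replicates 1 or 3 for Fth1 (adjusted p up to 0.0771), and any unwounded replicate or wounded replicate 2 for Ftl1 (up to 0.149). Tmem168 (-1.28), Stk40, a kinase-related protein (-1.23), Jrkl (-1.20), Smyd5, a lysine methyltransferase (-1.18), and Fam83d, a spindle protein (-1.18), also fell by more than 2-fold. A lack of overlap between groups was a condition for choosing them. The falls of Nr6a1, an orphan nuclear receptor (-1.27), Zbtb34 (-1.24) and Fut9, a fucosyltransferase (-1.17), were called with all 6 libraries. They were not called without unwounded replicate 3 for Nr6a1 (adjusted p = 0.0584), without unwounded replicate 1 or 2 for Zbtb34 (up to 0.0777), and without any one library but wounded replicate 3 for Fut9 (up to 0.10).

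Among the 36 gene groups, the wound-activated keratins had the highest median. The 4 wound-activated keratins, made by keratinocytes during repair, all rose, with a median log2 fold change of 0.73. Krt6b rose most, from 31.0, 23.9 and 32.4 to 73.0, 85.1 and 83.9 CPM (2.77-fold; log2 fold change 1.47, SE 0.12, edgeR adjusted p = 9.15e-09). Its partner Krt16 rose from 344, 337 and 321 to 601, 571 and 643 CPM (1.81-fold; adjusted p = 7.9e-11). Krt6a went from 2110 to 2237 CPM to between 3137 and 3396 CPM (log2 fold change 0.60), and Krt17 from 4514 to 4684 CPM to between 5797 and 6008 CPM (0.36). Unwounded and wounded libraries were fully separated for each of the 4, as they were for 1400 of all 1423 called genes. The basal keratins rose too in 2 of 3 members. Krt14 stood at 7068, 7256 and 7167 CPM unwounded and 10913, 11064 and 11081 CPM wounded (log2 fold change 0.62, SE 0.02, adjusted p = 2.21e-16), and its partner Krt5 rose by 0.32. Of 5 suprabasal keratins, Krt78 (1.06) and Krt13 (0.23) were called higher; Krt78 lost its call without unwounded replicate 1 (adjusted p = 0.0542), and Krt13 kept it only without unwounded replicate 1 (up to 0.267 in the others). None of the 4 simple epithelial keratins tested was called (median -0.11). Krt6a and Krt6b, and Krt14, Krt16 and Krt17, are close relatives in sequence, so how reads were split between them is uncertain.

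Some genes of the junction at which the ligase sits were higher. Dsp, desmoplakin itself, was at 336, 307 and 360 CPM unwounded and 520, 499 and 511 CPM wounded (1.53-fold; log2 fold change 0.61, SE 0.06, edgeR adjusted p = 1.09e-07). Reads from the transgene and from the endogenous gene cannot be told apart where their sequences match. Of 15 desmosome genes tested, 5 were higher, none lower and 10 not called (median 0.18), against 6.27% higher among all genes tested. Besides Dsp these were Evpl, the cornified envelope plakin envoplakin (0.70), Pkp3 (0.36) and Pkp1 (0.23), which encode plakophilins, and Jup, plakoglobin (0.20). Tight junction genes moved in both directions: F11r, which encodes the adhesion molecule JAM-A, rose by 0.44 and Amotl1 by 0.36, and Tjp1, the scaffold ZO-1, fell from 55.9, 56.7 and 57.7 to 39.6, 41.7 and 40.7 CPM (log2 fold change -0.48, SE 0.11, adjusted p = 0.00541). Of 13 adherens junction genes, 1 was called, Nectin4 (-0.68), and its call was lost without unwounded replicates 1 or 3 or wounded replicates 2 or 3 (adjusted p up to 0.0704).

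Of 14 hemidesmosome and integrin genes, which attach the cell to the basement membrane, 5 were higher, none lower and 9 not called (median 0.28), against 6.27% higher among all genes tested. Dst, the plakin that links hemidesmosomes to keratin, stood at 1275, 1282 and 1304 CPM unwounded and 2098, 2027 and 2115 CPM wounded (1.62-fold; log2 fold change 0.69, SE 0.04, edgeR adjusted p = 8.65e-13). Col17a1, the transmembrane collagen of hemidesmosomes, rose from 225, 229 and 217 to 362, 355 and 359 CPM (log2 fold change 0.68, SE 0.06, adjusted p = 1.19e-08). For both genes the groups lay far apart relative to the spread within them. The integrin subunits Itgb5 (0.37), Itga6 (0.34) and Itga3 (0.22) were called higher with all 6 libraries. Each lost its call when some library was left out: unwounded replicate 2 or wounded replicate 1 for Itgb5 (adjusted p up to 0.0713), unwounded replicates 1 or 2 or wounded replicate 3 for Itga6 (up to 0.0981), and unwounded replicates 1 or 2 or wounded replicates 1 or 3 for Itga3 (up to 0.220). Of 21 matrix genes, 5 were higher and 1 lower (median 0.08); the chains of laminin-332, the basement membrane laminin that keratinocytes lay down, were among the higher ones, with Lamb3 at 0.65 and Lama3 at 0.61. Ecm1, a secreted matrix glycoprotein, rose from 314, 314 and 326 to 475, 488 and 481 CPM (log2 fold change 0.60). The lower one was Postn, a matricellular protein, at 15, 13 and 11 counts unwounded and 0 in each wounded library, at least 17.3-fold lower against a floor of 3 counts over the group, a call lost without any one library but unwounded replicate 1 (adjusted p up to 0.0875).

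Adhesion and contractile genes were called in part. For comparison, 6.27% of all genes tested were called higher and 5.02% lower. Tns4, a tensin of focal adhesions, rose 1.91-fold, from 200, 206 and 202 to 381, 375 and 403 CPM (log2 fold change 0.93, SE 0.06, edgeR adjusted p = 4.15e-11), and with Zyx (0.40) was 1 of 2 called among 16 focal adhesion adaptors. Of 28 actomyosin genes, 6 rose and 1 fell (median 0.07): among the former were the nonmuscle myosins Myh14 (0.54) and Myh9 (0.47), the crosslinker Actn4 (0.53) and Flna (0.48), and the latter was Anln, a septin and actin binder of the cleavage furrow (-0.57). None of 17 matrix protease genes and none of 10 EGF receptor family genes was called. At an adjusted p under 0.05 with edgeR, the 16 TGF-beta pathway genes gave 2 higher and 2 lower. Tgfbi, a secreted matrix protein induced by TGF-beta, rose from 172, 162 and 167 to 304, 295 and 307 CPM (log2 fold change 0.86, SE 0.06), and Tgfb1 by 0.44. Id1, an inhibitor of helix-loop-helix factors, fell by 0.72 and Id3 by 0.42, the latter not called without unwounded replicate 1 (adjusted p = 0.0648).

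**Figure D2:**
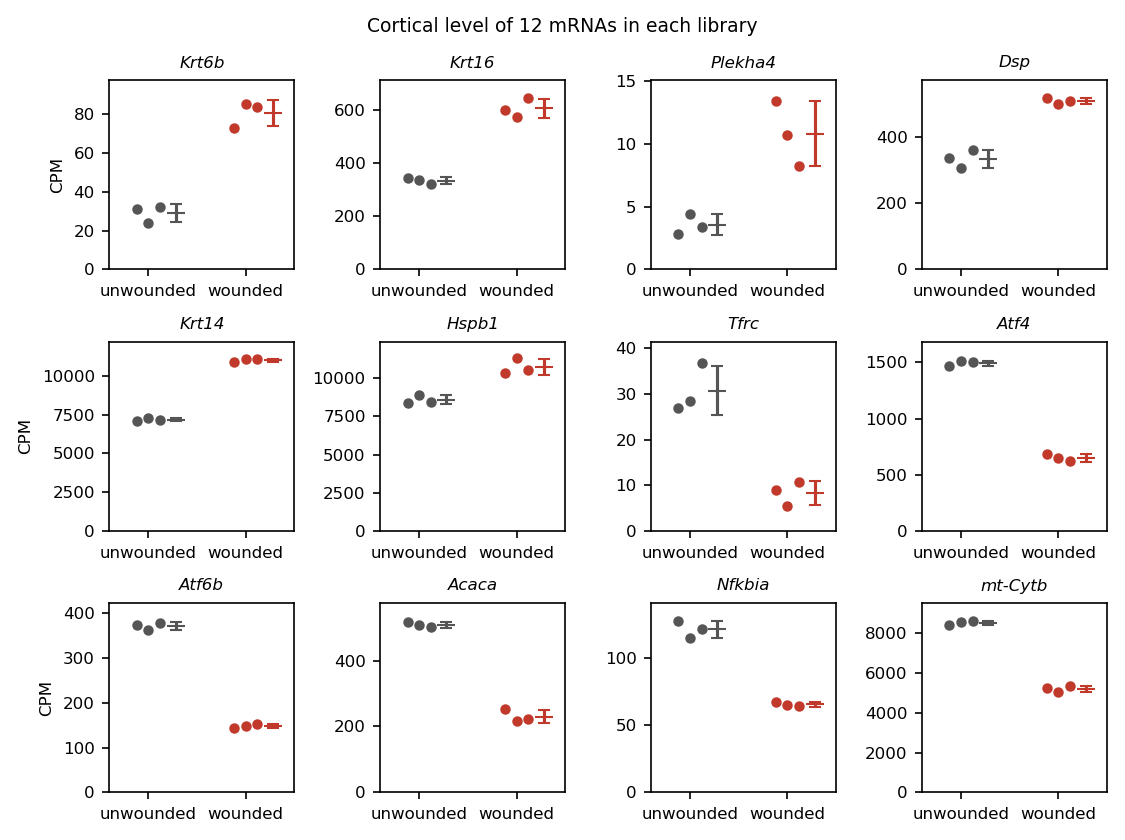
Level of 12 mRNAs in the 3 unwounded (grey) and 3 wounded (red) cortical libraries, in CPM on axes that start at 0; the bars beside the points are the mean and SD. In every panel the groups are separate, and Atf4 goes from between 1467 and 1512 CPM to between 618 and 683 CPM.

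Of 24 cornified envelope and late differentiation genes, 5 were higher, none lower and 19 not called (median 0.20). The shares among all genes tested were 6.27% higher and 5.02% lower. Sbsn and Dmkn, secreted proteins of the upper layers, rose by 0.33 and 0.36, with Sbsn at 1031, 1070 and 991 CPM unwounded and 1284, 1363 and 1247 CPM wounded. Klk8, an epidermal serine protease, rose by 0.54. The small proline-rich proteins Sprr2d (1.29) and Sprr1a (1.03), which are cross-linked into the envelope, rose more but at 2.41 to 8.25 CPM unwounded. Sprr1a lost its call without unwounded replicate 3 (adjusted p = 0.0646) and Sprr2d without replicate 1 of either group (up to 0.0927). Of 17 epidermal lineage factors, none was higher and 4 were lower (median -0.12): Grhl3, a grainyhead factor of barrier formation, fell from 18.7, 16.1 and 17.0 to 11.2, 6.84 and 7.13 CPM (log2 fold change -1.04, SE 0.24), and Klf4 (-0.40), Zfp750 (-0.39) and Klf5 (-0.37) fell less. The last 3 each lost the call without 3 or 4 of the single libraries (adjusted p up to 0.196, 0.103 and 0.122), unwounded replicates 2 and 3 among them for each. In the Notch pathway, which drives keratinocytes out of the basal layer, 2 of 11 genes were called, both lower. The ligand Jag2 fell from 439, 398 and 420 to 262, 279 and 247 CPM (log2 fold change -0.67, SE 0.06, edgeR adjusted p = 3.19e-08), and Notch1 fell by 0.32, a call lost without unwounded replicates 2 or 3 or wounded replicate 3 (up to 0.0865).

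The stretches before the start sites of 4 of the 5 late differentiation genes that rose share a short sequence. In RefSeq's promoter table (GRCm38.p6, 250 bases before to 50 after the start, first start listed), TGANTCA, which covers the AP-1 site, occurred in 10 of the 21 late differentiation genes tested that have an entry, against 7.93% of all 27025 promoters and 5.09% of the 9121 of tested genes. It is its own reverse complement apart from the middle base, so both strands are covered. Among genes called higher the share was 6.20% and among those called lower 3.56%. The 10 late differentiation genes with the sequence included Ivl, Lor, Sprr1b, Sprr2h, Krtdap and Scel, which were not called on wounding. The 250 bases before the start of these 4 genes, and of Plekha4, which had the largest rise among well-measured protein-coding mRNAs, are shown 5′ to 3′ on the strand of the gene, with each TGANTCA in capitals; the second in Sbsn runs 1 base past the start, so its last letter is not shown. Sprr1a is from chr3:92485882-92486131 (minus strand), Sprr2d from chr3:92338890-92339139 (plus), Dmkn from chr7:30763506-30763755 (plus), Sbsn from chr7:30751221-30751470 (plus) and Plekha4 from chr7:45526080-45526329 (plus).
Sprr1a: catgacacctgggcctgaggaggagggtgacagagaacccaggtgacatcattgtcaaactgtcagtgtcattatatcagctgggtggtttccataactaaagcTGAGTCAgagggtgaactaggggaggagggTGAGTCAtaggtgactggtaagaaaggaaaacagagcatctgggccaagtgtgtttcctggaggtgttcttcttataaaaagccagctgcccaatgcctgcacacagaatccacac
Sprr2d: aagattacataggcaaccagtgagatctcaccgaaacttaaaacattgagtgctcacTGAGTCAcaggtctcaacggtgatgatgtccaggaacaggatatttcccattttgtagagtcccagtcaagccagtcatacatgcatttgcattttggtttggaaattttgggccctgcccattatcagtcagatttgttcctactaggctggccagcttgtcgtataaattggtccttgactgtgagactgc
Dmkn: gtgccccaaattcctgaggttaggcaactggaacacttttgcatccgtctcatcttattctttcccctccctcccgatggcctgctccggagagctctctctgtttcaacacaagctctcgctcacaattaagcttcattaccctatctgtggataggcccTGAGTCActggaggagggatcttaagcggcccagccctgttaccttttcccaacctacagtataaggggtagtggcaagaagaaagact
Sbsn: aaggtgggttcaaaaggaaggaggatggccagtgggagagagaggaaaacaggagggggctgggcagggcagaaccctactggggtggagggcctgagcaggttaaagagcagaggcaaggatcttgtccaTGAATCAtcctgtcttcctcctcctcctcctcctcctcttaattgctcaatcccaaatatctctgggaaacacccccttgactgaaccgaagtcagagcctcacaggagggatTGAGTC
Plekha4: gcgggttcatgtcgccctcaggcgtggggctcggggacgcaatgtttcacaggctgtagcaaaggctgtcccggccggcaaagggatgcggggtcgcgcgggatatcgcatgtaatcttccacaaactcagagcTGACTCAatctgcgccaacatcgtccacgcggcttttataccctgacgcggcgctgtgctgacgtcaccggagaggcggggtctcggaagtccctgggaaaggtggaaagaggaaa
The matches begin 146 and 116 bases before the start in Sprr1a, 193 in Sprr2d, 89 in Dmkn, 119 and 6 in Sbsn and 116 in Plekha4. The matches are letters in a window, and no binding was measured. The AP-1 and immediate early genes themselves were 2 higher and 4 lower of 21 (median -0.19): Maff and Junb (0.40) rose, and Zfp36, which destabilises cytokine mRNAs, fell from 73.8, 64.0 and 58.2 to 42.6, 43.3 and 48.0 CPM (log2 fold change -0.56). Myc (-0.65), Dusp1 (-1.04) and Klf4 also fell. Over all genes tested the shares were 6.27% higher and 5.02% lower. Myc was not called without unwounded replicate 1 (edgeR adjusted p = 0.0794), and Dusp1 not without unwounded replicates 1 or 3 or wounded replicates 2 or 3 (up to 0.288).

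A set of abundant mRNAs fell at the cortex with small standard errors. Atf4, the transcription factor of the integrated stress response (chr15:80255184-80257541, GRCm38), stood at 1467, 1512 and 1498 CPM unwounded and 683, 647 and 618 CPM wounded, a 2.3-fold fall (log2 fold change -1.20, SE 0.04, edgeR adjusted p = 1.25e-15). Atf6b, an endoplasmic reticulum membrane transcription factor (chr17:34647146-34655074), fell from 374, 362 and 378 to 144, 149 and 152 CPM (2.50-fold; log2 fold change -1.32, SE 0.06, adjusted p = 9.36e-14). Acaca, the biotin-carrying acetyl-CoA carboxylase that commits carbon to fatty acid synthesis (chr11:84129672-84401651), fell from 517, 507 and 501 to 252, 216 and 222 CPM (2.21-fold; adjusted p = 1.82e-12). In each of these genes the highest wounded library lay far below the lowest unwounded one. Prune2, which holds a BNIP2 and Cdc42GAP homology domain (chr19:16956118-17223932), fell from 233, 221 and 250 to 95.4, 91.7 and 96.1 CPM (log2 fold change -1.31, SE 0.07). Nfkbia, the inhibitor IkappaB-alpha, fell from 127, 115 and 121 to 67.5, 65.1 and 64.1 CPM (log2 fold change -0.89, SE 0.09, adjusted p = 1.09e-07), the only call among 12 NF-kappaB pathway genes. The stress regulators around Atf4 did not move as a block: of 32 ATF4, amino acid and unfolded protein response genes, 3 were higher and 7 lower (median -0.07), with Atf6 at -0.69 and the amino acid transporter Slc7a5 at -0.60 among the latter. Of 6 biotin carboxylase and biotin-handling genes tested, Acaca alone was called, and the median of the 6 was 0.22. Beside these groups, 6.27% of all genes tested were called higher and 5.02% lower. Of 14 fatty acid synthesis genes none was higher and 4 were lower, the others being Acly (-0.54), Elovl1 (-0.38) and the desaturase Scd2 (-0.29); Acly was not called without unwounded replicates 2 or 3 and Elovl1 not without replicate 2 of either group (adjusted p up to 0.0642 and 0.143).

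**Figure D3:**
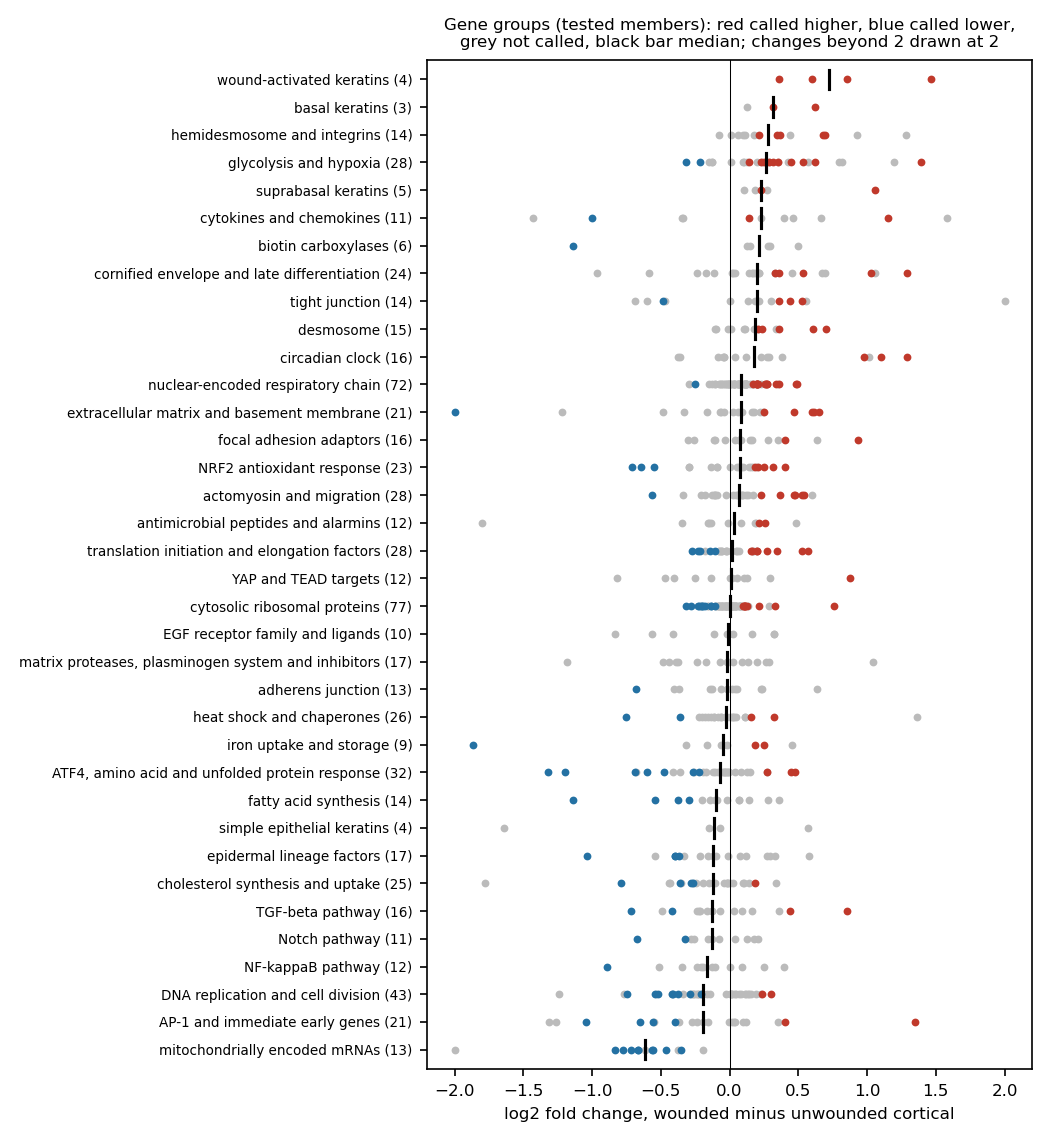
Log2 fold change (x, wounded minus unwounded cortical) of each tested member of the 36 gene groups, ordered by median (black bar), with the number tested in brackets; red was called higher, blue lower, grey not called. The 4 wound-activated keratins lie at the top with a median of 0.73, and the 13 mitochondrially encoded mRNAs at the bottom with -0.62.

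Mitochondrially encoded mRNAs fell together. Of 13 tested, 9 were lower and none higher (median -0.62), and their share of all counts was 3.89% to 4.03% in unwounded and 2.48% to 2.54% in wounded libraries. mt-Co1, a cytochrome oxidase subunit, stood at 3816, 3772 and 3778 CPM unwounded and 2077, 2234 and 2066 CPM wounded (log2 fold change -0.83, SE 0.03, edgeR adjusted p = 3.37e-15). mt-Cytb went from between 8419 and 8610 CPM to between 5050 and 5323 CPM (-0.71). These mRNAs are translated inside mitochondria, not at the cortex, and their total-fraction median was lower still, at -1.34. Nuclear copies of mitochondrial genes and the overlap of mt-Nd5 with mt-Nd6 in libraries that do not keep strand make single values uncertain. Of 72 nuclear genes of the respiratory complexes, 14 were higher, 1 lower and 57 not called (median 0.08), with Ndufv1 at 0.49, Ndufa9 at 0.49 and Sdhb at 0.36. Shares over all genes tested were 6.27% higher and 5.02% lower.

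Metabolic and housekeeping groups moved in part, beside shares of 6.27% higher and 5.02% lower among all genes tested. Of 28 glycolysis and hypoxia genes, 10 were higher and 2 lower (median 0.27). Log2 fold changes in this group ran from -0.32 to 1.39. Beside Ndufa4l2, the higher ones included Aldoc (0.62), Pfkp (0.53) and Hk1 (0.45), and the abundant Pkm rose from 2273, 2308 and 2261 to 2820, 2756 and 2753 CPM (0.28). Cholesterol genes gave 1 higher and 4 lower of 25 (median -0.12), and none of the 5 was called without unwounded replicate 2. Of 43 replication and division genes, 2 were higher and 8 lower (median -0.19), with Bub1, a spindle checkpoint kinase, falling from 27.4, 32.5 and 29.2 to 16.1, 16.9 and 20.1 CPM (log2 fold change -0.74). In the NRF2 antioxidant group, 5 of 23 were higher and 3 lower; Gclc, the rate-limiting enzyme of glutathione synthesis, fell by 0.71 and the pentose phosphate enzyme Tkt rose by 0.40. Cytosolic ribosomal proteins split evenly, with 9 higher and 11 lower of 77 and a median of 0.00. Every called member but Rpl17 (0.76) lay between -0.32 and 0.33. Rpl17 and Rps27a (0.33) varied among unwounded libraries, at 505 to 721 and 701 to 1200 CPM, and reads of such genes can be split with processed copies elsewhere in the genome. Rps27a was not called without unwounded replicates 1 or 2 or wounded replicates 1 or 3 (edgeR adjusted p up to 0.140). Translation factors gave 8 higher and 5 lower of 28, led by the initiation factors Eif5b (0.57) and Eif3a (0.53). In the heat shock group of 26, Hspb1 rose from 8395, 8919 and 8445 to 10348, 11328 and 10536 CPM (0.32) and Bag3, a co-chaperone that sends damaged filament-binding proteins to autophagy, fell by 0.75.

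Of 16 clock genes, 3 were higher, none lower and 13 not called (median 0.18), against 6.27% higher among all genes tested. Nr1d1, the nuclear receptor REV-ERB-alpha, was at 51.3, 54.3 and 50.5 CPM unwounded and 89.7, 108 and 111 CPM wounded (1.97-fold; log2 fold change 0.98, SE 0.10, edgeR adjusted p = 2.63e-07). Dbp (1.29) and Ciart (1.10) were scarce, at 1.82 to 7.05 CPM in unwounded libraries, and were not called without any of 5 single libraries each, wounded replicate 2 being the exception for Ciart and unwounded replicate 3 for Dbp (adjusted p up to 0.143 and 0.214).

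The wound response at the cortex was next set beside that of the total fraction, in a model of all 12 libraries. These responses share no library, but the total material was what neutravidin left once the cortical material was retained. A cortical and a total library may thus be parts of one lysate, and the reported fit treated them as independent. Likeness between the responses is therefore not shown to be a separate repeat of the wound response. In the total fraction, 2116 of 13571 genes were called, 15.6% of those tested; without wounded total replicate 1 the count was 3502. Of the 1423 genes called at the cortex, 93.5% had the same sign in the total fraction, against 70.3% of all genes tested. Across the called genes, which are not independent of each other, the fold changes had a Pearson correlation of 0.67. Over all 12599 genes tested at the cortex it was 0.355. Of the called genes, 798 were called in the total fraction in the same direction and 4 in the opposite one: Nfkbia, Bag3, Atf6 and Tnrc18, each lower at the cortex and higher in the total fraction. Tnrc18 lost its cortical call in 5 of 6 fits leaving out 1 library (edgeR adjusted p up to 0.204), and its difference between responses was not called (adjusted p = 0.285). In 826 of the 1423, the cortical change was the smaller one in size. A test of the difference between the responses called 17 genes, 0.125% of 13571, with 1228 at an unadjusted p under 0.05, and 16 of the 17 were also called at the cortex. Wounded total replicate 1 stood apart from its group, with 13117 genes detected against 15910 and 16330. Without it the test called 413 of 14073 genes, 2.93%, including all 17, while leaving out any other single library gave 4 to 11.

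**Figure D4:**
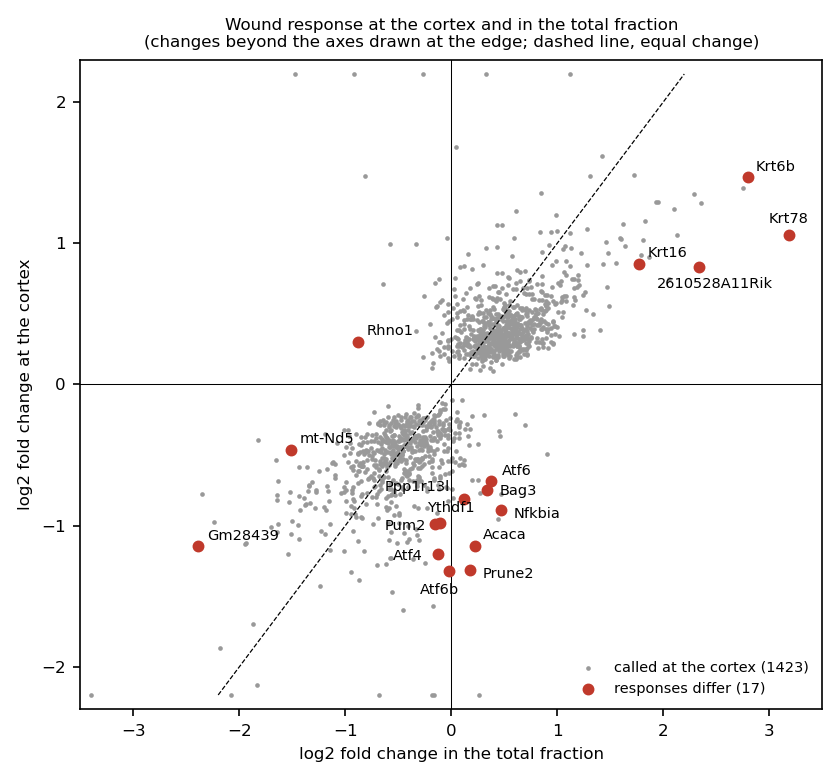
Log2 fold change on wounding in the total fraction (x) and at the cortex (y) for the 1423 genes called at the cortex (grey) and the 17 whose responses differ (red). The 10 lower red points nearest a total change of 0 fell at the cortex by 0.69 to 1.32 without falling to that extent in the total fraction. Of them, Nfkbia, Bag3 and Atf6 were called higher in the total fraction, by 0.47, 0.34 and 0.38.

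For 10 of the 17 the fall was at the cortex and not in the total fraction. Atf6b had log2 fold changes of -1.32 at the cortex and -0.02 in the total fraction, Atf4 of -1.20 and -0.12, and Acaca of -1.14 and 0.22. Prune2 had -1.31 and 0.17, Pum2, a repressor that binds mRNA 3′ ends, -0.99 and -0.16, Ythdf1, a reader of methylated adenosine, -0.98 and -0.11, and Ppp1r13l, the p53-binding protein iASPP, -0.81 and 0.12. Nfkbia had -0.89 and 0.47, Bag3 -0.75 and 0.34, and Atf6 -0.69 and 0.38. With CPM scaled over all 12 libraries, Nfkbia went from 118, 106 and 112 to 63.4, 61.1 and 60.4 at the cortex and from 33.4, 32.3 and 33.7 to 54.7, 40.9 and 42.4 in the total fraction. On the same scale Acaca went from 477, 467 and 462 to 236, 203 and 210 at the cortex and stayed between 36.9 and 53.3 in the 6 total libraries. Atf4 went from 1355, 1393 and 1383 to 641, 607 and 582 at the cortex, against 475 to 522 unwounded and 376 to 515 wounded in the total fraction. In all 10 the unwounded cortical libraries were above every total library. That contrast and the wound response share the unwounded cortical libraries. How many of all genes tested had this order was not counted, so it is not shown to be a trait of these 10. Acaca, Atf6b, Prune2 and Nfkbia were called in this test under each of its 16 alternatives, Bag3 in 15, Atf4 in 11, Ppp1r13l in 9, Atf6 in 8, and Pum2 and Ythdf1 in 4.

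The other 7 differed in other ways. Krt6b (log2 fold change 1.47 at the cortex and 2.80 in the total fraction), Krt16 (0.86 and 1.77), Krt78 (1.06 and 3.19) and the unnamed gene 2610528A11Rik (0.83 and 2.34) rose in both fractions and less at the cortex. mt-Nd5 (-0.46 and -1.51) and Gm28439 (-1.15 and -2.39) fell less at the cortex. Rhno1, a checkpoint protein, was not called at the cortex (0.30) and fell in the total fraction (-0.88). These differences were called under these numbers of the 16 alternatives: mt-Nd5 in 11, Krt6b and 2610528A11Rik in 6, Rhno1 in 5, and Krt16, Krt78 and Gm28439 in 4. By contrast, Dsp (0.61 and 0.76) gave a difference between responses of -0.13 with an SE of 0.15.

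Called genes differed in the build of their transcripts. Protein-coding genes called higher had a median 3′UTR of 464 bases in GENCODE M21, those called lower 1200 and those not called 963. Their transcripts had a median GC content of 54.2%, 48.8% and 50.4%, and coding lengths of 1338, 1242 and 1404 bases. In the quartile of shortest 3′UTRs 12.6% of genes were called higher and 3.89% lower, and in the quartile of longest 3.13% and 7.02%. In the quartile of lowest GC 1.96% were higher and 7.66% lower, and in that of highest GC 11.8% and 3.78%. The library-wide trends moved with the group: the gap in median log2 CPM between the highest and lowest GC quartiles was 0.65 to 0.70 in unwounded and 0.82 to 0.87 in wounded libraries. The total fraction, without wounded total replicate 1, had medians of 524 and 1082 bases and 53.1% and 48.5% GC for genes called higher and lower. With the GC trend removed, 1283 genes were called and 77.5% of the reported calls were kept in the same direction; the part of library preparation in these trends was not tested.

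**Figure D5:**
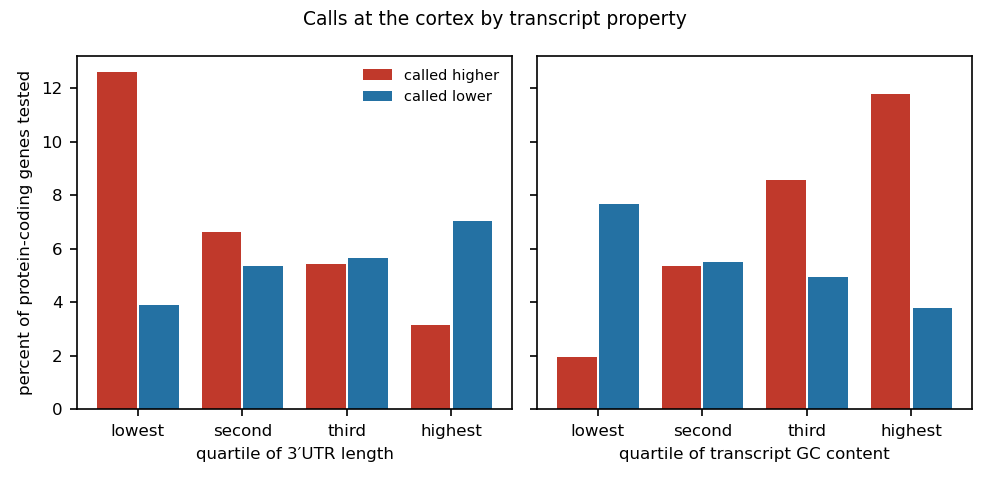
Percent of protein-coding genes called higher (red) or lower (blue) at the cortex in each quartile of 3′UTR length (left) and transcript GC content (right). Calls go from 12.6% higher and 3.89% lower in the shortest 3′UTRs to 3.13% and 7.02% in the longest.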

How the data were processed

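RNA-seq libraries made from poly-A RNA without strand information were counted per gene, and the deposited table holds raw counts of 54532 genes. Per the submitters' processing notes, CASAVA, HISAT2 and the mm10 genome were used; the counting tool and annotation are not given in the sources used here. The authors also deposited FPKM values, used for the limma alternatives. The 3 wounded cortical and 3 unwounded cortical libraries were compared with edgeR 4.0.16 (R 4.3.3; TMM scaling, filterByExpr, quasi-likelihood F test, Benjamini-Hochberg threshold 0.05) on the deposited counts. Of the genes, 18957 had a count and 12599 were tested, 11021 of them protein coding. The difference between cortical and total responses was the interaction term of a fit of all 12 libraries. Library totals were 8980013 to 23457548. The steps that fit and call genes were tested on simulated counts.

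The rule for naming genes took the 12 largest changes in each direction among protein-coding genes with an adjusted p under 0.05. Those genes also had a mean of at least 100 counts and no overlap between groups. It added up to 4 called members per gene list, each list's most abundant member, called or not, and Dsp, without the count and overlap filters. Genes of the interaction test, Jup, Sbsn, Itga3, Postn, Gapdh and Tnrc18 stand outside that rule in whole or in part and were named after their values were seen. The same holds for Myh9, Junb, Tarm1, Hspa12b and Cd68. The gene lists and the choice of these libraries were made with earlier results of these data known. Gene structure came from GENCODE M21 (GRCm38), which held 54495 of the 54532 identifiers, and promoters from RefSeq. Alternatives were other scalings and filters, DESeq2 1.42.0, limma 3.58.1 on log2(FPKM + 1) and log2(FPKM + 0.1), a replicate block, length and GC corrections, thinning to the smallest total and leaving out each library; the thinning, the GC corrections and the fit without wounded total replicate 1 were added after the data were seen. Figures were drawn with matplotlib.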

Additional observations from a re-analysis of the deposited data

Results flagged for a closer look

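For 17 genes the log2 wound response at the cortex and that in the total fraction differed in the interaction test (edgeR adjusted p under 0.05, 3 libraries in each of 4 groups). The cortical minus total difference was -1.46 for Prune2, -1.34 for Acaca, -1.33 for Nfkbia, -1.28 for Atf6b, -1.07 for Bag3, -1.05 for Atf4, -1.04 for Atf6, -0.91 for Ppp1r13l, -0.85 for Ythdf1 and -0.81 for Pum2, which fell at the cortex. It was -2.11 for Krt78, -1.48 for 2610528A11Rik, -1.30 for Krt6b and -0.89 for Krt16, which rose in both fractions. It was 1.27 for Gm28439, 1.07 for mt-Nd5 and 1.21 for Rhno1. The adjusted p was largest for Rhno1, at 0.0498, and smallest for Atf6b, at 0.00123.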

How the results depend on the processing

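The 1423 calls (790 higher, 633 lower) became 770 (479 and 291) with limma on log2(FPKM + 1), 743 (466 and 277) with a pseudocount of 0.1, and 337 (217 and 120) with all 12 libraries in 1 fit, which pools their spread; without wounded total replicate 1 that fit gave 1276. A fold change of at least 2 left 87 (37 and 50). Leaving out 1 cortical library gave 902 to 1194 calls, 525 to 689 higher and 369 to 505 lower. DESeq2 gave 1676, no filter 1563 and scaling by library size alone 1368 with 46.9% higher in place of 55.5%. With the gene length trend removed 1406 were called, 898 higher and 508 lower, so 63.9% were higher. With the GC trend removed 60.4% of 1283 calls were higher. Under the replicate block 1309 were called, 1277 of them shared with the same sign. Same-numbered unwounded and wounded cortical libraries had deviations correlated at -0.02, 0.03 and 0.00, so their numbers give no sign of pairing. Pairing of cortical with total libraries was not measured. Of 139 named genes called, which did not include Myh9 and Junb, 97 stayed called without each cortical library in turn. Named genes gave 3074 values under alternatives with the same direction and side of the threshold, 364 that missed it, 23 that passed it and none of opposite sign. The medians of 8 gene lists within 0.09 of 0 changed sign under at least 1 alternative. The 17 genes whose responses differed between fractions became 11 with library size alone, 10 under the replicate block, and 4 to 413 without 1 library; the cause was not tested. The depth of the smallest library, 8980013 counts, limits what can be seen for scarce genes.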

Other observations

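Gapdh, often used as a reference gene, was uneven within a group: 843, 703 and 31.7 CPM in the unwounded and 1521, 1444 and 675 CPM in the wounded cortical libraries, with a log2 fold change of 1.20, an SE of 0.50 and an edgeR adjusted p of 0.134. Unwounded replicate 3 was far below the other cortical libraries for this gene. The total libraries were uneven too: on CPM scaled over all 12 libraries, Gapdh stood at 31.1, 1300 and 52.3 unwounded and 16.0, 918 and 2262 wounded.

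A few called mRNAs were counted in 1 group only. Tarm1 had 0 counts in the unwounded and 19, 12 and 13 in the wounded cortical libraries, at least 11-fold higher against a floor of 3 counts over the group. Hspa12b had 22, 11 and 6 counts unwounded and 0 wounded, at least 17.3-fold lower. Neither was called without any 1 of the 6 libraries (edgeR adjusted p up to 0.129 for Tarm1 and 0.0921 for Hspa12b); in 1 of those fits each was too low to be tested. Among 799 tested genes listed with a transcription factor family, 30 were called higher (3.75%) and 46 lower (5.76%; median -0.07), against 6.27% and 5.02% of all genes tested. The 39 bZIP factors, to which Atf4, Atf6, Atf6b, Maff and Dbp belong, gave 4 higher (10.3%) and 7 lower (17.9%). Of 266 protein-coding genes with 1 exon, 4.14% were higher and 10.5% lower, against 6.92% and 5.47% of all protein-coding genes tested.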
